A study of Mus musculus with 30 samples.

Results

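Ribosome biogenesis genes encode the factors that transcribe, modify, cleave and assemble ribosomal RNA, most of them in the nucleolus. The 44 genes described here were taken from a written list of ribosome biogenesis and nucleolar genes and read in the count tables of 23 mouse embryos, by genotype and stage. They are 44 of the 55487 genes in those tables. By role, the H/ACA snoRNP proteins were Nhp2, Nop10, Gar1 and Dkc1, and the C/D snoRNP and U3 proteins were Fbl, Nop56, Nop58 and Rrp9. The abundant nucleolar proteins were Ncl, Npm1, Nolc1, Gnl3 and Nol7, and RNA polymerase I was represented by Polr1a and Polr1b. The small subunit processome contributed Utp15, Wdr43, Wdr75, Heatr1, Wdr36, Utp6, Utp18, Utp3, Utp20, Nop14, Noc4l, Mphosph10, Imp3, Imp4, Bms1 and Ddx10. Late small subunit factors were Tsr1, Nob1 and Rrp12, and the large subunit factors were Bop1, Pes1, Wdr12, Nop2, Nop16, Ebna1bp2, Rrp1b, Noc2l, Noc3l and Ddx21.

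The study asked how loss of Dis3 affects the mouse embryo before implantation. Each RNA library came from the polyadenylated RNA of 1 embryo produced by mating Dis3 heterozygotes, whose null allele had been made with CRISPR/Cas9; the leftover genomic DNA of the same embryo gave its genotype. Embryos were kept in KSOM medium, collected at embryonic day 2.5 or 2.75, and given ERCC spike-in RNA. The series also holds ChIP-seq of POU6F1 fused to mCherry, expressed from a transfected plasmid in embryonic stem cells. At E2.5 there were 6 WT embryos, 2 heterozygous (Het) embryos and 4 null embryos; 3 WT, 5 Het and 3 null embryos came from E2.75. Both alleles of Dis3 were intact in WT, 1 in Het and 0 in null embryos. Litters and dams were not given, so the p-values below measure only the spread between these embryos.

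Depth was read as the total of gene counts in each library. The 6 WT libraries at E2.5 held from 5525515 to 14015980 counts, with a median of 10279673.5. The 2 Het libraries of that day held 8161847 and 11552921 counts. The 4 null libraries of that day ranged from 3630727 to 9993650. Null libraries at this stage were thus mostly shallower than WT libraries, with overlapping ranges. At E2.75 the WT libraries held 3283708, 8030848 and 8644043 counts. The 5 Het libraries of E2.75 ranged from 3009380 to 14013185. The 3 null libraries held 1914128, 1690192 and 7051002 counts, so 2 of these 3 nulls were the shallowest libraries of all 23. Reads outside annotated exons and ERCC reads are given next. At E2.5 the share of reads outside exons was 20.99% to 25.1% in WT, 25.9% and 21.2% in Het, and 33.3%, 37.7%, 32.3% and 39.5% in null libraries. At E2.75 it was 33.4%, 28.8% and 23.5% in WT, 23.1% to 27.9% in Het, and 43.9%, 42.9% and 41.1% in null libraries. Every null library lay above every WT and Het library of its day. The ERCC share had medians of 4.86%, 3.398% and 6.43% in WT, Het and null at E2.5 and of 3.42%, 2.58% and 4.21% at E2.75. The ERCC ranges of WT and null overlapped on both days, at 3.49% to 7.44% and 6.23% to 7.03% at E2.5 and at 2.53% to 3.698% and 3.26% to 5.01% at E2.75. The part of these shares and of the depth in the results below was not tested.

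Ribosome production starts when RNA polymerase I transcribes the long precursor of the ribosomal RNAs. The precursor is modified by small nucleolar ribonucleoproteins (snoRNPs), folded and cleaved in the small subunit processome around the U3 snoRNA, and built into the small and large subunits by separate sets of factors. In the mouse this machinery is assembled during the cleavage stages, when inactive nucleolus precursor bodies turn into working nucleoli. DIS3 is a ribonuclease of the nuclear RNA exosome, which trims ribosomal RNA precursors and snoRNAs and degrades many other nuclear RNAs.

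All 44 members passed the filter on low counts in every comparison, and each had at least 8 counts in each of the 23 libraries (the lowest was Noc3l). Levels between genes were compared as CPM (counts as a rate of the library total, scaled by edgeR's TMM factors) per kb of exon. Exon length took all annotated exons of a gene together, 4209 bases for Fbl and 924 for Imp3. The order of genes therefore depends on the annotated transcripts. On that scale the mean level of the members had a median of 44.5 CPM per kb, with quartiles at 22.9 and 86.4, against 4.12 over the 13415 genes tested with the stages combined. Each of the 44 lay above that median of all genes. The level per length was 1399 CPM per kb for Nhp2, which binds H/ACA snoRNAs, and 852 for Npm1, a nucleolar chaperone. Nop10, another H/ACA protein, stood at 321 CPM per kb. Wdr43, a processome protein, followed at 215 CPM per kb, Imp3 at 214 and Dkc1, the pseudouridine synthase of the H/ACA particles, at 205. The ends of the range were therefore far apart, with Nhp2 at the top and, at the bottom, Fbl at 4.39, Polr1a at 7.58 and Noc3l at 10.2 CPM per kb. The counting ignored the strand, and 19 members have an annotated gene on the opposite strand over part of their length, so some of their reads may belong to the other gene. For Nol7 the overlap with Ranbp9 was 4423 bases, and for Nhp2 the overlap with Rmnd5b was 44 bases. Members lay on 18 chromosomes, and Dkc1 was the only member on the X. Imp3 and Utp3 have 1 exon.

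The members' share of all gene counts was taken per library. Its median was 1.60% in WT, 1.61% in Het and 1.63% in null embryos at E2.5, and 1.45%, 1.34% and 1.43% at E2.75. The E2.5 WT libraries ranged from 1.40% to 1.67% and the E2.75 WT libraries stood at 1.65%, 1.45% and 1.18%, so the WT ranges overlapped between stages; the Het ranges did not, at 1.61% in both E2.5 libraries and 1.22% to 1.45% at E2.75. Per ERCC count the picture differed: member counts per ERCC count had medians of 0.318 in WT, 0.532 in Het and 0.231 in null embryos at E2.5, and of 0.431, 0.506 and 0.316 at E2.75. The 2 E2.5 Het libraries were at 0.332 and 0.732, the first within the WT range of 0.208 to 0.393, and the E2.5 null range was 0.211 to 0.257. At E2.75 the ranges were 0.335 to 0.558 in WT, 0.4195 to 0.689 in Het and 0.294 to 0.423 in null libraries, so null overlapped both. Such ratios also varied within groups. All gene counts per ERCC count ran from 12.4 to 27.6 in the E2.5 WT libraries and were 20.5 and 45.4 in the E2.5 Het libraries. The ratios leave out reads outside exons, whose share was higher in null libraries. Fewer cells in an embryo, less RNA per cell and the recovery of RNA or spike-in cannot be told apart in these whole-embryo libraries. A few abundant members made up much of the total. The 4 most abundant members took 43.2% to 57.2% of all member counts in the E2.5 WT libraries but 29.5% to 33.1% in the E2.75 WT libraries. In null embryos these shares were 45.0% to 46.7% at E2.5 and 40.0% to 42.1% at E2.75. At E2.75 the null values lay above all 3 WT values, but the Het libraries, at 32.3% to 40.6%, overlapped them.

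The label of the samples was checked against marker genes. Of 12 morula and blastocyst lineage genes, 12 had counts, Dppa3 was the most abundant at a mean of 8097 CPM, and Sox2 was under 1 CPM. Their summed level ran from 11710 to 22055 CPM in the E2.5 WT libraries and from 5725 to 5965 CPM in the E2.75 WT libraries. Of 10 two-cell genes 9 had counts and Duxf3 had 0; Tcstv3 was highest at a mean of 17.8 CPM, and 1 library, E2.75 Het replicate 2, had a sum of 860 CPM; E2.75 WT replicate 1 had 149 CPM, beside 2.12 and 11.7 CPM in the other WT libraries of its day. Of 12 oocyte genes 12 had counts, with Nlrp14 highest at 15.2 CPM and Zp1 and Zar1 under 1 CPM; their summed median was 90.3 CPM in WT at E2.5 and 23.2 CPM in WT at E2.75. Of 12 cumulus and granulosa genes 11 were under 1 CPM, Cyp11a1, Ptx3, Inhba and Col1a2 were at 0, and Star was highest at 5.09 CPM. The lineage sum was mostly Dppa3; in the WT stage comparison Dppa3, Gata6, Krt8 and Klf5 were called lower, no other gene of these lists was called, and no oocyte gene passed. At E2.75 the lineage sum was 6199 to 7922 CPM in Het and 8514, 7201 and 6900 CPM in null libraries, so every null lay above every WT library. Against WT at E2.75, Gata6, Krt8 and Klf5 were called higher and Tead4 lower in null embryos. With the stages combined Gata3, Krt18 and Zfp352 were called lower in null against Het and Zfp352 in null against WT, and Dppa3 was called lower between the null stages. The markers were tested under TMM scaling alone, and the part of these differences in the member results was not tested.

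Dis3 itself (ENSMUSG00000033166, chromosome 14, 99075206 to 99099770, minus strand, GRCm38) is the disrupted gene. The paper reports that the null allele lacks some of its exons. Counts were taken over the whole gene, so reads from the remaining exons can be counted in null libraries. The Dis3 level was 18.0, 86.1 and 147 CPM (lowest, median, highest) in the 6 E2.5 WT libraries. It was 58.2 and 59.2 in the Het libraries, and 16.01, 2.55, 0 and 14.3 in the null libraries. At E2.75 it was 112, 64.4 and 107 CPM in WT, 42.3, 30.4, 49.6, 43.8 and 36.7 in Het, and 12.8, 21.5 and 10.1 in null libraries. The library labelled E2.5 WT replicate 6, at 18.0 CPM, stood in the range of the null libraries; the other WT libraries lay above every null library. Against WT, Dis3 in null embryos had a log2 fold change of -3.38 at E2.5 (edgeR adjusted p 0.0929, lower than the median WT in 4 of 4 nulls) and of -2.73 at E2.75 (adjusted p 0.00517, lower in 3 of 3). Against Het the log2 values were -2.88 at E2.5 (adjusted p 0.514, lower in 4 of 4) and -1.51 at E2.75 (adjusted p 0.0394, lower in 3 of 3). With the stages combined, Het against WT gave -0.94 (adjusted p 0.711), which did not pass.

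**Figure D1:**
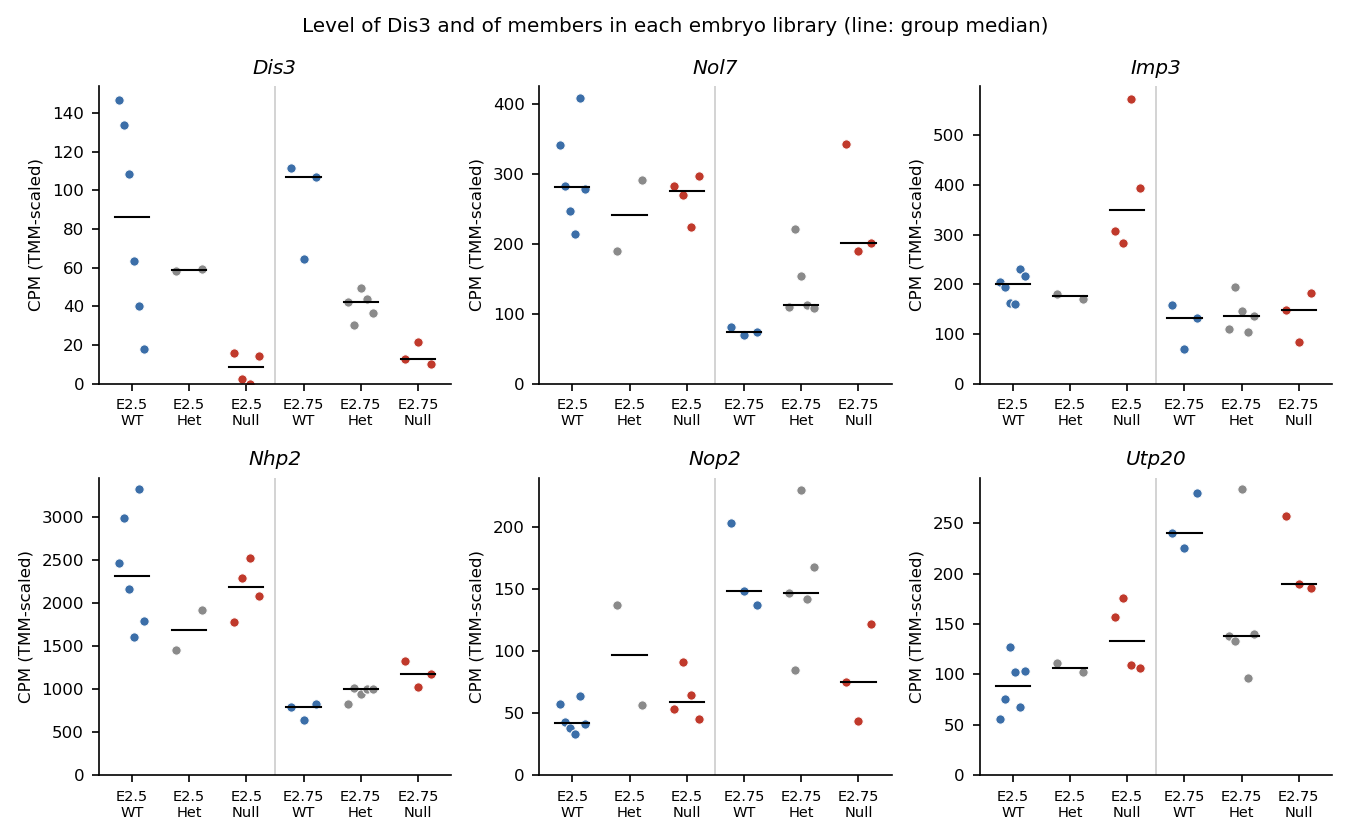
CPM (TMM-scaled, vertical axis) of Dis3 and of 5 members in each embryo library, by genotype and stage; each point is 1 embryo and each line a group median. Nol7 lay between 69.1 and 81.5 CPM in the E2.75 WT libraries and at 189.8 CPM or above in the E2.75 null libraries.

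The promoters of 4 members named in several comparisons are shown; these 4 were chosen after their values were seen. They come from RefSeq, on build GRCm38.p6, from 250 bases before to 50 bases after the start: Nol7 at chr13:43398126-43398425, Imp3 at chr9:56937250-56937549, Nop2 at chr6:125131633-125131932 and Nhp2 at chr11:51619523-51619822, each on the plus strand. Capitals mark matches to the searched motifs on either strand.
Nol7: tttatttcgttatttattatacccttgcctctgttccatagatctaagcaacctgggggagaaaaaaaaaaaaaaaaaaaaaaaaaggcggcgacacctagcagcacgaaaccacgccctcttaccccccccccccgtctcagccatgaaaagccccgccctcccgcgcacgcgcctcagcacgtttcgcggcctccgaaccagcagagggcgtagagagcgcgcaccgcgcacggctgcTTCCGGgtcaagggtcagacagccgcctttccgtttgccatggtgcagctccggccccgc
Imp3: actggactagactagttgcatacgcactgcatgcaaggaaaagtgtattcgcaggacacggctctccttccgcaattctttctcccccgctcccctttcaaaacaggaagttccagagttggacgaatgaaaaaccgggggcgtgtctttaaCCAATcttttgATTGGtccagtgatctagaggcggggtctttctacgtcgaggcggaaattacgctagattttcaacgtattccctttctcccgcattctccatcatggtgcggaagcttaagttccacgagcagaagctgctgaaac
Nop2: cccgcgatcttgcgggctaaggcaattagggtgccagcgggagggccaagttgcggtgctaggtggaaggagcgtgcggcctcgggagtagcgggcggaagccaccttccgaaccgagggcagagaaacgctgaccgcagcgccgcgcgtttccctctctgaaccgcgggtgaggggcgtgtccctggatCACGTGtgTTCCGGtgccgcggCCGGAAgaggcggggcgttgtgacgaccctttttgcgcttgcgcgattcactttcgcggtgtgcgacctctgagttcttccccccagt
Nhp2: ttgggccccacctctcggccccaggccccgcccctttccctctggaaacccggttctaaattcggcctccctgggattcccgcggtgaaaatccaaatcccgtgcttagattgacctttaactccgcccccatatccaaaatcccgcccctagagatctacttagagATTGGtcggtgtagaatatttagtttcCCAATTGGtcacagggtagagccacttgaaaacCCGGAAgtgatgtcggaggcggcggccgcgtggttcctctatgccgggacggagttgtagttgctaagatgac
Positions count from the start of the promoter table. Nol7 held an ETS core at -10. Imp3 held CCAAT boxes at -98 and -87 in opposite orientations. Nop2 held an E-box at -60 followed by ETS cores at -52 and -38. Nhp2 held CCAAT boxes at -83, -56 and -53, the last pair overlapping, and an ETS core at -23. Matches were searched in 38 members with a promoter in the table. The ETS core (CCGGAA) was in 18 of these 38 (47.4%), in 32.9% of tested genes with a promoter and in 16.7% of all 27025 genes in the table; among the other pathway genes it was in 60.5%. The E-box (CACGTG) was in 7 members (18.4%), against 11.96% of tested genes and 8.09% of all genes. The CCAAT box (CCAAT) was in 15 members (39.5%), against 43.5% and 41.1%. The 4 other motifs were each in 1 member: CTCGCGAG in Tsr1, the NRF1 core GCATGCGC in Nob1, and the YY1 core AAGATGGC and the homeodomain core TAATTA in Imp4. That is 2.63% of members each, beside 2.37%, 6.34%, 5.596% and 3.27% of tested genes and 1.04%, 3.05%, 3.19% and 6.12% of all genes, in that order. A match describes letters in the window and says nothing of binding.

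The comparison of E2.75 with E2.5 in WT embryos asks how the machinery changes over this interval when Dis3 is intact. In these hours the embryo goes from loosely joined cells toward a compacted morula. A gene was called when its BH-adjusted p over all genes tested was under 0.1 and its log2 fold change was beyond 1 in size. Of the 44 members edgeR called 6 higher (background 3.74% of 18677 genes) and 4 lower (background 3.64%), and 24 had an unadjusted p under 0.05, 12 in each direction. DESeq2 called 9 higher (5.82% of all genes) and 4 lower (6.12%). Without E2.75 WT replicate 1 edgeR called 2 higher (1.87% of all genes), and without replicate 3 also 2 (1.85%). Polr1a, Ncl, Utp20, Mphosph10, Utp3, Wdr36, Rrp12, Bop1, Pes1, Rrp1b and Ebna1bp2 are named below after their values were seen. The median log2 fold change of the 44 members was 0.17, against -0.000892 over all genes tested. These directions are relative to the other RNAs: scaled to ERCC, the median of all genes rose by 0.89 and that of the members by 1.10, with 22 members called higher (17.2% of all genes) and 0 lower (0.316%; edgeR; under TMM scaling 12 had an unadjusted p under 0.05 in the lower direction, and DESeq2 called 4).

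Among the H/ACA proteins, Nhp2 (ENSMUSG00000001056, chromosome 11, 51619735 to 51623714) fell. Its level was 1606, 2309 and 3319.7 CPM (lowest, median, highest) in the E2.5 WT libraries and 788, 639.8 and 821 CPM in the E2.75 WT libraries. All 3 later embryos lay below all 6 earlier ones. The log2 fold change was -1.67 (SE 0.222, adjusted p 0.000195), and -0.64 under ERCC scaling. The H/ACA group had a median of -0.66 with 3 of 4 below 0, and 0.39 with 1 of 4 below 0 under ERCC scaling. Of the C/D and U3 proteins, Nop58, a core protein of the C/D particles, was at 1089.9, 1605 and 2205 CPM in the earlier and 932, 531 and 594 CPM in the later WT libraries. All 3 later values again lay below the earlier range. Its log2 fold change was -1.19 (adjusted p 0.00395), and -0.22 under ERCC scaling.

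Of the 5 abundant nucleolar proteins only Nol7 was called; their median was -0.78 with 4 of 5 below 0, and under ERCC scaling 0.26 with 4 of 5 above 0. Nol7 (ENSMUSG00000063200, chromosome 13, 43398390 to 43407097), a nucleolar protein, was at 214, 281 and 409 CPM in the E2.5 WT libraries and at 81.5, 69.1 and 73.5 CPM in the E2.75 WT libraries. The groups did not overlap. Its log2 fold change was -1.99 (SE 0.291, adjusted p 0.000514, lower in 3 of 3), and -0.96 under ERCC scaling. Npm1 was at 2444, 2788 and 4246 CPM in the earlier and 1529, 1385 and 1529 CPM in the later WT libraries. The ranges were separate, yet its log2 fold change of -0.997 (adjusted p 0.00373) lay just short of the fold threshold, and under ERCC scaling it was 0.01. Ncl, which binds the ribosomal RNA precursor, had a log2 fold change of -0.78 (adjusted p 0.0646), and 0.26 under ERCC scaling.

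RNA polymerase I was represented by Polr1a, the largest subunit, with a log2 fold change of 1.27, and Polr1b, the next in size, with 1.15. Polr1b was at 43.9, 73.8 and 119 CPM in the earlier and 105, 201 and 204 CPM in the later WT libraries, so 2 of 3 later embryos lay above the earlier range. It did not pass in edgeR (adjusted p 0.146), while DESeq2 called it (1.24, adjusted p 0.0832). Polr1a was at 39.5, 53.8 and 109.9 CPM in the earlier and 169, 122 and 153 CPM in the later WT libraries. It was called (adjusted p 0.0442, higher in 3 of 3), though not without E2.75 WT replicate 1 (adjusted p 0.154) or replicate 3 (adjusted p 0.127), nor with thinned counts (1.14, adjusted p 0.108). Under ERCC scaling the values were 2.25 for Polr1a and 2.05 for Polr1b, both called.

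The small subunit processome was mixed, with 11 of 16 above 0 and a median of 0.17 (1.13 under ERCC scaling, 14 of 16 above 0). Utp20, a scaffold protein of the particle, was at 55.6, 88.7 and 127 CPM in the earlier and 240.2, 226 and 280.3 CPM in the later WT libraries. The later values were all above the earlier ones. This is a log2 fold change of 1.49 (adjusted p 0.00414). Mphosph10, which forms a complex with Imp3 and Imp4 at the U3 snoRNA, was at 217, 315 and 455 CPM in the earlier and 138, 147 and 145 CPM in the later WT libraries. Its groups were separate in the opposite direction. The log2 fold change was -1.17 (adjusted p 0.0208), and -0.13 under ERCC scaling; the call was lost with counts thinned to the smallest library (-0.992, adjusted p 0.0774). Wdr43 was at 1066, 1200.4 and 1911 CPM in the earlier and 914, 664 and 483 CPM in the later WT libraries. It was lower in 3 of 3 later embryos but with -0.97 (adjusted p 0.0104) did not reach the fold threshold. Over the other settings, apart from leaving out 1 embryo, its value ran from -0.998 to -0.11. Noc4l, chosen after its values were seen, had 1.25 and did not pass (adjusted p 0.11001), though DESeq2 called it (1.35, adjusted p 0.0476). So did edgeR with RLE factors (1.35), ERCC scaling (2.12), no filter (1.33) or without the WT library with the low Dis3 level (1.39). Utp3 (-0.87, adjusted p 0.0455, 0.15 under ERCC scaling) and Wdr36 (0.94, adjusted p 0.0709) fell short of the fold threshold, although DESeq2 (1.04, adjusted p 0.0208) and edgeR with RLE factors, ERCC scaling (1.91), thinned counts or no filter called Wdr36. All 3 later Utp3 values, 118, 87.4 and 109.9 CPM, lay below its earlier range of 159 to 266 CPM.

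Among late small subunit factors Nob1, the nuclease that makes the mature end of the small ribosomal RNA, was at 82.5, 105 and 159 CPM in the earlier and 202, 131 and 126 CPM in the later WT libraries. These groups overlapped, and its log2 fold change of 0.42 did not pass (adjusted p 0.483). Under ERCC scaling Nob1 was called higher in edgeR (1.28, adjusted p 0.0449). Rrp12, needed for export of both subunits, was at 12.2, 20.1 and 71.2 CPM in the earlier and 85.7, 34.9 and 109.9 CPM in the later WT libraries. It was called at 1.47 (adjusted p 0.0855) with 2 of 3 later embryos above the earlier range, but the call was lost in 7 of 23 fits that each left out 1 embryo (1.12 to 2.02 over the 23).

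Of the 10 large subunit factors 3 were called higher and 0 lower by edgeR and by DESeq2 (in edgeR 4 had an unadjusted p under 0.05 in the higher and 1 in the lower direction), but without E2.75 WT replicate 1 or replicate 3 only Nop2 of these 3 was called. Nop2 (ENSMUSG00000038279, chromosome 6, 125131909 to 125144753), an rRNA cytosine methyltransferase, was at 32.9, 41.9 and 64.2 CPM in the E2.5 WT libraries and at 204, 149 and 137 CPM in the E2.75 WT libraries. The 3 later values were all above the earlier range. Its log2 fold change was 1.82 (SE 0.345, adjusted p 0.00327), and 2.84 under ERCC scaling. Bop1 and Pes1 belong to the same complex. Bop1 was at 12.5, 33.6 and 72.8 CPM in the earlier and 135, 89.9 and 99.7 CPM in the later WT libraries, with a log2 fold change of 1.64 (adjusted p 0.0538, higher in 3 of 3), a call lost in 3 of 23 fits that each left out 1 embryo. Pes1 was at 117, 171 and 211 CPM in the earlier and 367, 214 and 282 CPM in the later WT libraries. Its value of 0.77 (adjusted p 0.0450) was short of the fold threshold, but under ERCC scaling it was called (1.68, adjusted p 0.00693). Rrp1b was at 52.5, 68.9 and 95.9 CPM in the earlier and 195, 101 and 154 CPM in the later WT libraries, with 1.03 (adjusted p 0.0672, higher in 3 of 3); the call was lost with thinned counts (0.989, adjusted p 0.136) and in 4 of 23 fits that each left out 1 embryo. Ebna1bp2 had -0.85 (adjusted p 0.0590), and 0.17 under ERCC scaling.

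**Figure D2:**
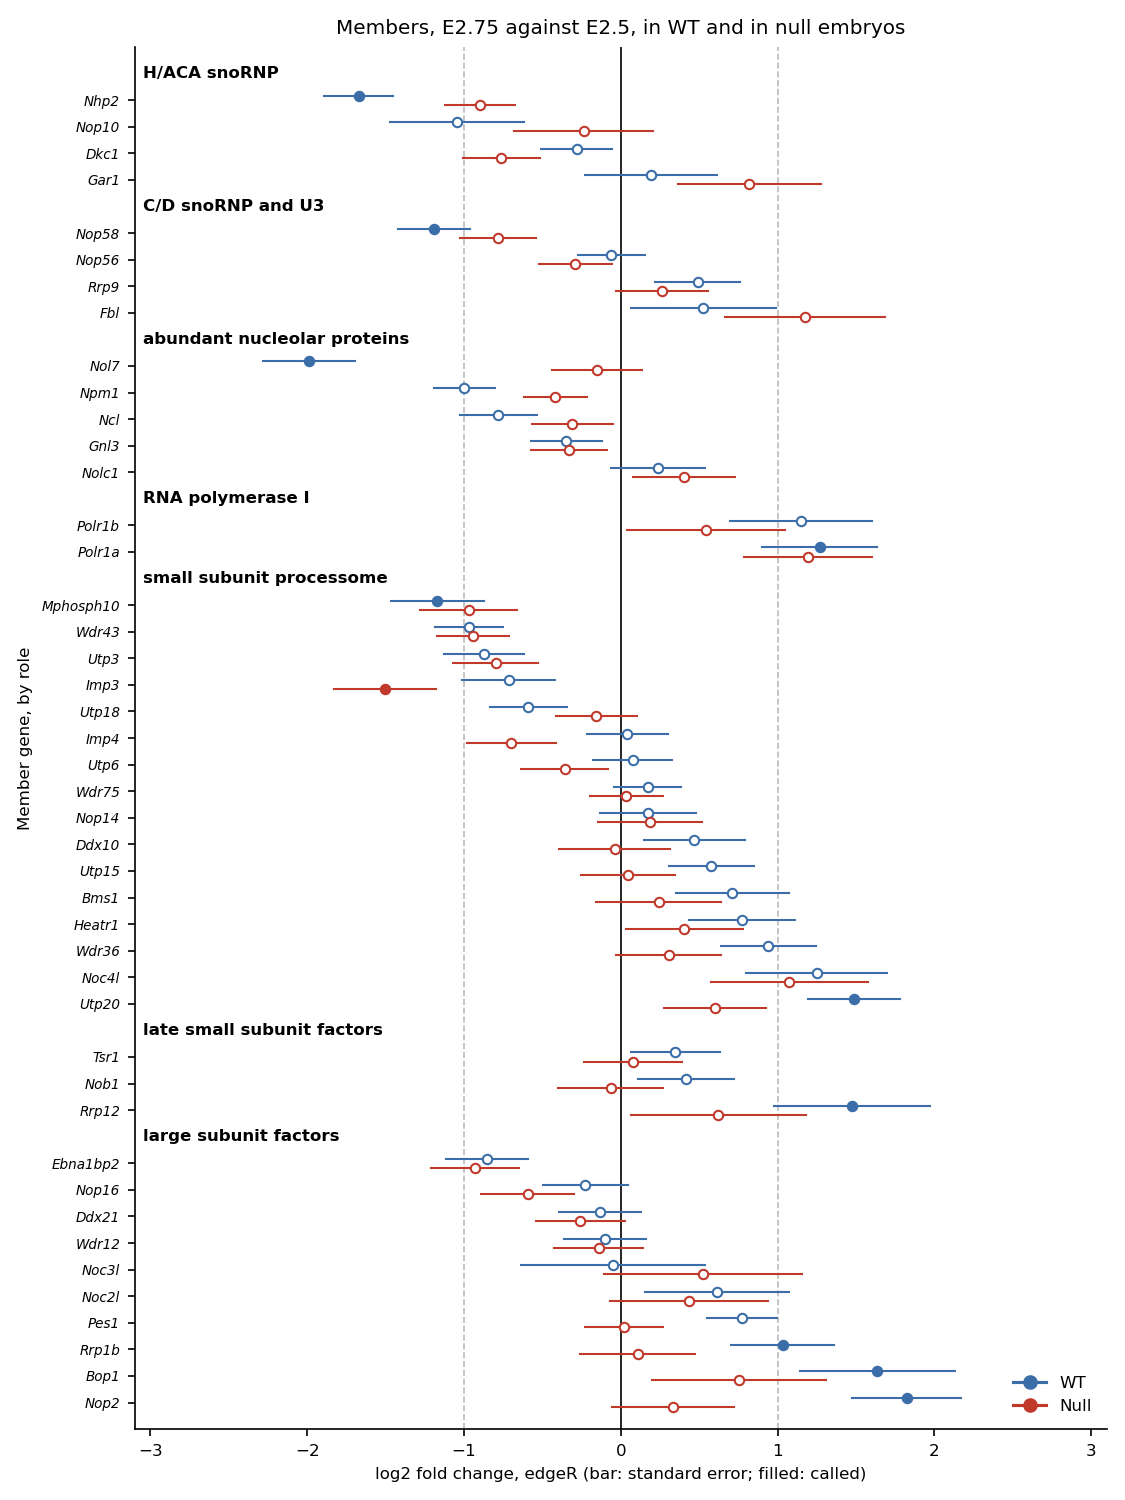
Log2 fold change from E2.5 to E2.75 (horizontal axis, edgeR with TMM scaling, bars are standard errors) of the 44 members by role, in WT and in null embryos, which share no library; filled points were called. Nol7 stood at -1.99 in WT and -0.15 in null embryos, and scaling to ERCC moves the median of all genes up by 0.89 in WT and 0.97 in null embryos, which turns several negative values positive.

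In null embryos the same step from E2.5 to E2.75 asks how the machinery changes when both copies of Dis3 are disrupted. No library is shared with the WT comparison, but both used the spread estimated over all 6 groups. Of the 44 members edgeR called 0 higher (background 1.24%; 3 had an unadjusted p under 0.05, and DESeq2 called 2, Fbl and Polr1a, beside 5.26% of all genes) and 1 lower (background 1.77%; 10 had an unadjusted p under 0.05, and DESeq2 called 1, beside 3.84% of all genes). The median log2 fold change was -0.01, against 0 over all genes tested. Under ERCC scaling the median was 0.97 for the members and 0.97 for all genes. Some members were then called higher and 0 lower, beside 10.5% and 0.209% of all genes. The gene called lower under TMM scaling was Imp3 (ENSMUSG00000032288, chromosome 9, 56937475 to 56938398), the Mphosph10 partner that helps the U3 snoRNA pair with the precursor. Imp3 was at 306, 284, 574 and 393 CPM in the E2.5 null libraries and at 147, 83.6 and 182 CPM in the E2.75 null libraries. The later values were all below the earlier ones. Its log2 fold change was -1.50 (SE 0.325, adjusted p 0.0225), and -0.61 under ERCC scaling. The call was lost without E2.75 null replicate 2 (-1.24, adjusted p 0.1304) and without the 2 null libraries with the fewest gene counts (-1.03, adjusted p 0.474). In WT embryos the same step gave Imp3 -0.71 (adjusted p 0.170, and 0.30 under ERCC scaling); the interaction was -0.79 (adjusted p 0.511), so the steps are not shown to differ.

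There were 4 further members that had an adjusted p under 0.1 in null embryos without reaching the fold threshold. Nhp2 was at 1780.0, 2284, 2517 and 2081 CPM in the earlier and at 1326, 1024 and 1169.8 CPM in the later null libraries, with -0.90 (adjusted p 0.0415, lower in 3 of 3), and 0.06 under ERCC scaling. Wdr43 had -0.94 (adjusted p 0.0370), Ebna1bp2 -0.93 (adjusted p 0.0906) and Nop58 -0.78 (adjusted p 0.0992), each negative in WT embryos as well; under ERCC scaling they were 0.02, 0.04 and 0.23. Nol7 in null embryos was at 283, 269, 224 and 297 CPM in the earlier and 343, 189.8 and 202 CPM in the later libraries; the ranges overlapped and the log2 fold change was -0.15 (adjusted p 0.871), and 0.78 under ERCC scaling. Nop2 was at 53.1, 91.1, 64.7 and 45.1 CPM in the earlier and 74.9, 43.6 and 122 CPM in the later null libraries. These ranges overlapped too, and its value was 0.33 (adjusted p 0.740). Under ERCC scaling Nop2 was called higher in edgeR (1.22, adjusted p 0.0961).

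The null against WT comparison at E2.5 asks which genes differ at the earlier stage when both copies of Dis3 are lost. Of the 44 members edgeR called 0 higher (background 1.36% of 15904 genes) and 0 lower (background 0.459%); at an unadjusted p under 0.05, 1 was higher and 0 lower, and DESeq2 called 1 higher (4.90% of all genes) and 0 lower (3.01%). The gene higher in each case was Imp3. In WT it was at 159.7, 199.7 and 231 CPM (lowest, median, highest), and the null libraries stood at 306, 284, 574 and 393 CPM. All 4 null values lay above all 6 WT values. Its log2 fold change was 0.96 (adjusted p 0.0714), short of the fold threshold in edgeR, and 1.03 in DESeq2 (adjusted p 0.000462), past it. With RLE factors (1.53% of all genes higher) or without the library with the low Dis3 level (0.891%) edgeR called Imp3 too. Against the 2 Het libraries, at 181 and 170.3 CPM, the same 4 null embryos gave 1.08 (edgeR adjusted p 0.468, higher in 4 of 4) and 1.17 in DESeq2 (adjusted p 0.0101). Under ERCC scaling the value against Het turned to -0.16, while that against WT was 0.58. Over the 44 members the median against WT was 0.03, with 24 above 0, beside -0.05 over all genes; under ERCC scaling the medians were -0.40 and -0.46.

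Against Het at E2.5 edgeR called 0 members higher (background 0%) and 0 lower (background 0.0126%); at an unadjusted p under 0.05, 1 was higher and 0 lower, and DESeq2 called 1 higher (2.996% of all genes) and 0 lower (0.994%). The members' median was -0.06, against 0.03 over all genes tested, and it changed sign without Het replicate 1. With 2 Het embryos this comparison was thin: over all genes edgeR called 0 higher and 2 lower, and DESeq2 449 and 149. Under ERCC scaling edgeR called 16 members lower (12.05% of all genes), with medians of -1.25 for the members and -1.15 for all genes. The comparisons against WT and Het share the null embryos, so they are not independent. Imp4, which works beside Imp3 in the U3 complex and was named after its values were seen, stood at 193, 202 and 227 CPM in WT and at 248, 254, 282 and 324 CPM in the null libraries. These groups did not overlap either, and the log2 fold change was 0.39 (adjusted p 0.3397), and -0.03 under ERCC scaling.

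At E2.75 the null against WT comparison asks the same of the later stage. Among the members edgeR called 1 higher (background 2.19% of 14442 genes) and 0 lower (background 2.35%); at an unadjusted p under 0.05, 3 were higher and 2 lower, and DESeq2 called 1 higher (7.52% of all genes) and 0 lower (5.41%). A count of 1 among 44 is near the edgeR background and below that of DESeq2. The gene called was Nol7. It stood at 81.5, 69.1 and 73.5 CPM in WT libraries and at 343, 189.8 and 202 CPM in null libraries. All 3 null values lay above all 3 WT values. Null against WT gave 1.67 (SE 0.339, adjusted p 0.0241), and 1.20 under ERCC scaling. Without the 2 null libraries with the fewest gene counts, which leaves 1 null embryo assumed to vary like the others, it was 1.37 (adjusted p 0.187). The Het libraries, at 109, 221, 154, 112 and 108 CPM, lay above all WT libraries. Against Het the same nulls gave 0.77 (adjusted p 0.182; 2 of 3 nulls lay within the Het range).

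Nop2 stood at 204, 149 and 137 CPM in the E2.75 WT libraries and at 74.9, 43.6 and 122 CPM in the null libraries. All 3 null values lay below all 3 WT values. With -1.06 against WT (adjusted p 0.156) and -0.97 against Het (adjusted p 0.167), it was not called in either; under ERCC scaling it was called in both (-1.52, adjusted p 0.0479, and -1.75, adjusted p 0.0121), as it was without the filter (-1.10, adjusted p 0.0632, and -1.03, adjusted p 0.0499). Without the filter 2.17% of all genes were lower against WT and 2.21% against Het. The Het libraries were at 147, 84.4, 230.2, 142 and 167 CPM and overlapped the null range. Nhp2 went the other way, with WT libraries at 788, 639.8 and 821 CPM and null libraries at 1326, 1024 and 1169.8 CPM, again without overlap. Its value was 0.60 (adjusted p 0.147), and 0.16 under ERCC scaling. By role, the abundant nucleolar proteins had a median of 0.34 with 5 of 5 above 0 (under ERCC scaling -0.11 with 1 of 5 above 0), and the large subunit factors had -0.34 with 1 of 10 above 0 (under ERCC scaling -0.75 with 0 of 10). The small subunit processome had -0.25 (-0.65 under ERCC scaling). RNA polymerase I had -0.46 (-0.89 under ERCC scaling), H/ACA proteins 0.38 (-0.05) and C/D proteins 0.29 (0.01). Over the 44 members the median was -0.14, beside -0.01 over all genes; under ERCC scaling these were -0.63 and -0.40.

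Against Het at E2.75 edgeR called 0 members higher (background 2.51%) and 0 lower (background 2.31%); at an unadjusted p under 0.05, 2 were higher and 1 lower, and DESeq2 called 0 higher (5.999% of all genes) and 0 lower (4.53%). The median was 0.11, with 26 above 0, beside -0.04 over all genes, and it changed sign without null replicate 1. Under ERCC scaling the medians were -0.61 and -0.74, and Dkc1, Nop56, Bop1, Nop2 and Nop16 were called lower (15.0% of all genes). These nulls are the same embryos as in the comparison with WT.

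**Figure D3:**
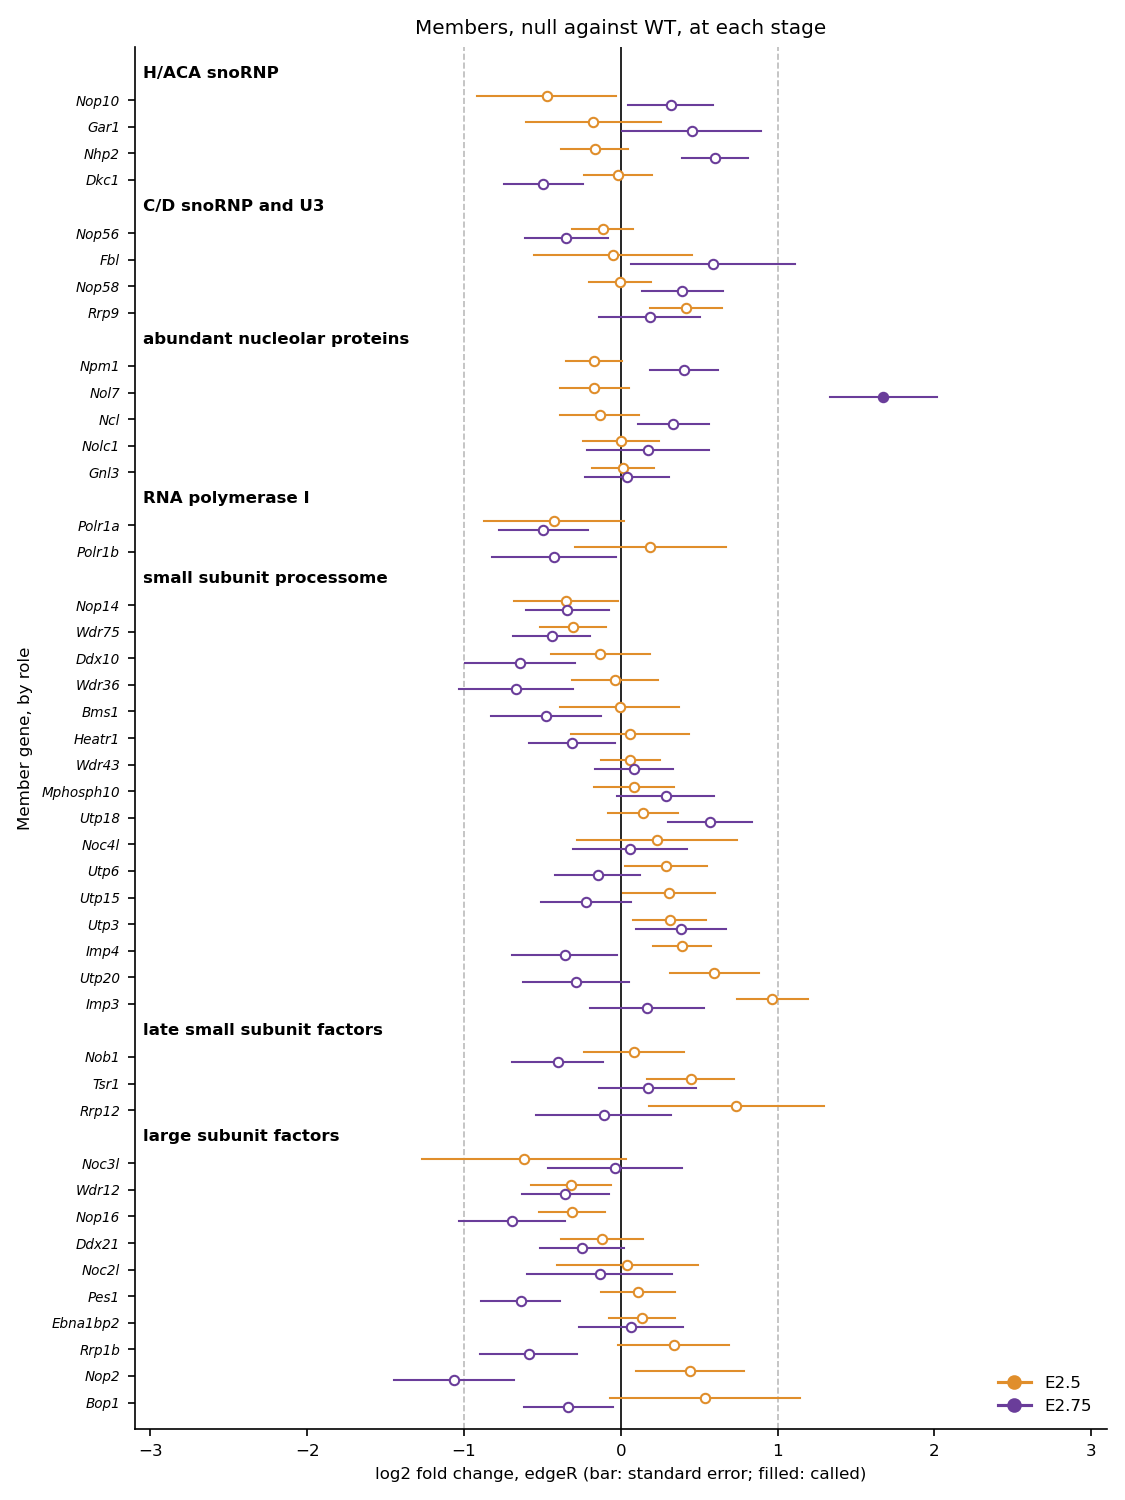
Log2 fold change of null against WT (horizontal axis, edgeR with TMM scaling, bars are standard errors) of the 44 members by role, at E2.5 and at E2.75, with filled points for calls. Nol7 at E2.75 (1.67) was the only filled point, Imp3 at E2.5 stood at 0.96, and under ERCC scaling the median of all genes was -0.46 and -0.40, which turns several positive values negative.

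An interaction term in the fit by 6 groups tested whether the null effect differs with stage. For null against WT edgeR called 0 members higher (background 0%) and 0 lower (background 0%); at an unadjusted p under 0.05, 3 were higher and 2 lower, and DESeq2 called 1 higher (1.397% of all genes) and 0 lower (0.787%). Over all 18677 genes edgeR made no call, so with the filter on low counts edgeR does not show that a call limited to 1 stage above differs between stages. Nol7 had the value of 1.84 (adjusted p 0.203; above all WT libraries in 3 of 3 nulls at E2.75, and within the WT range in 4 of 4 at E2.5). DESeq2 gave Nol7 1.85 (adjusted p 0.00211) and called it, as did edgeR without the filter (1.83, adjusted p 0.0461). Without the filter 0.375% of all genes were higher. Nop2 had -1.49 (adjusted p 0.345) and Nhp2 0.77. The 5 abundant nucleolar proteins all had positive interaction values with a median of 0.47 (0.40 under ERCC scaling, 3 of 5 positive). The large subunit factors had 1 of 10 positive and a median of -0.27 (-0.26 under ERCC scaling, 1 of 10). For null against Het edgeR called 0 higher (background 0%) and 0 lower (background 0%); at an unadjusted p under 0.05, 0 were higher and 2 lower, and DESeq2 called 0 (0.136% and 0.343% of all genes). Those lower were Imp3 (-1.13) and Dkc1 (-0.77). The members' median was -0.17 for WT and 0.06 for Het, beside 0.08 and -0.11 over all genes.

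With the stages combined by genotype, as the study's methods describe, the comparison of null with Het embryos asks what differs beyond the loss of 1 copy. The groups mix stages unequally, with 4 null, 2 Het and 6 WT embryos from E2.5 and 3 null, 5 Het and 3 WT embryos from E2.75. Of the 44 members edgeR called 0 higher (background 3.67%) and 0 lower (background 2.06%); at an unadjusted p under 0.05, 3 were higher and 1 lower, and DESeq2 called 0 higher (6.73% of all genes) and 0 lower (2.95%). The members' median was 0.14 beside 0.02 over all genes, and -0.03 beside -0.04 without the 2 shallowest libraries. With stage as a covariate edgeR gave 2 members an unadjusted p under 0.05, and the members' median was 0.15 beside -0.00211 over all genes. Under ERCC scaling the medians were -1.02 and -1.08, with 20 members called lower (33.4% of all genes). Imp3 had the smallest p, with 0.92 (adjusted p 0.0998), under the fold threshold, and -0.42 under ERCC scaling. Without the 2 shallowest libraries it was called (1.15, adjusted p 0.0209), beside 3.26% of all genes higher. Of the 7 null embryos, the 4 of E2.5 lay above every Het library and the 3 of E2.75 lay within or below the Het range. Nop2 had -0.96 (adjusted p 0.188), with overlapping groups, and was called lower under ERCC scaling (-2.13, adjusted p 0.0114). Rrp9, the protein that binds U3 in the C/D particle, was at 191, 212, 221 and 326 CPM in the E2.5 and 156, 428 and 277 CPM in the E2.75 null libraries. Its Het libraries were at 158 and 181 CPM on the earlier day, with 179.7, 194, 202, 157 and 171 CPM on the later day. Of the 7 nulls, 5 lay above every Het library. The log2 fold change was 0.54 (adjusted p 0.198), and -0.43 under ERCC scaling.

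Against WT with the stages combined edgeR called 0 members higher (background 3.66%) and 0 lower (background 1.59%); at an unadjusted p under 0.05, 1 was higher and 0 lower, and DESeq2 called 0 higher (6.44% of all genes) and 0 lower (2.59%). With stage as a covariate edgeR gave 5 members an unadjusted p under 0.05. The members' median in that fit was 0.08, beside -0.02 over all genes, and 4.20% of all genes were called higher and 2.21% lower. The null embryos are those of the comparison with Het. The median was 0.01, with 22 above 0 and 22 below, beside -0.02 over all genes (-0.33 and -0.37 under ERCC scaling). Imp3 had 0.73 (adjusted p 0.193), above 0 under ERCC scaling as well (0.24). Nop16, a large subunit factor, was at 179.6, 218 and 259 CPM in the earlier WT libraries, with 220.5, 186 and 156 CPM in the later ones. Its null libraries were at 192, 150.4, 214 and 166 CPM and at 84.3, 92.3 and 182 CPM, and 3 of these 7 lay below all WT libraries. The value was -0.43 (adjusted p 0.3397). Wdr75, a processome protein, was at 211, 269 and 344 CPM in the earlier WT libraries, with 316, 280.1 and 339 CPM in the later ones. Its null libraries were at 242, 179.6, 216 and 278 CPM and at 288, 186 and 236 CPM, and the groups overlapped. Its value was -0.31 (adjusted p 0.379).

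Het against WT asks whether losing 1 copy of Dis3 alters these genes. Over all 44 edgeR called 0 higher (background 0%) and 0 lower (background 0%); at an unadjusted p under 0.05, 0 were higher and 3 lower, and DESeq2 called 0 higher (0.201% of all genes) and 0 lower (0.152%). The median was -0.08, beside -0.03 over all genes, and 0.65 and 0.71 under ERCC scaling. The 3 lower genes, chosen here for those p-values, were Ddx10 (-0.69), Nhp2 (-0.66) and Wdr12 (-0.48). This fit had no stage term. Of the 7 Het embryos 5 came from E2.75, but 3 of the 9 WT embryos, so these values mix stage with genotype. The H/ACA sum, which includes Nhp2, had medians of 3896 CPM in WT and 2753 in Het at E2.5. At E2.75 they were 1720 and 2226 CPM, and ranges overlapped on both days. With stage as a covariate the members' median was -0.07, beside -0.01 over all genes. Under ERCC scaling Nhp2 was 0.27 and Wdr12 0.28. Over the other settings, apart from leaving out 1 embryo, Ddx10 ran from -0.76 to -0.06.

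Other genes of the pathway, 101 from a written list, all passed the filter. In the WT stage comparison edgeR called 12 higher and 11 lower, with a median of -0.03 (42 and 0 with a median of 0.96 under ERCC scaling). In the null stage comparison it called 2 higher and 12 lower, with a median of -0.28 (18 and 1 with a median of 0.72 under ERCC scaling). In null against WT at E2.75 edgeR called 0 higher and 3 lower; 1 had an unadjusted p under 0.05 in the higher direction, and DESeq2 called 0 higher and 3 lower. With the stages combined, null against Het had 1 higher, Znhit6, a C/D snoRNP assembly factor (1.02, adjusted p 0.0489; under ERCC scaling 0 were higher and 38 lower, with a median of -0.95), and null against WT had 1 lower, Las1l, a nuclease of the large subunit pathway (-1.00004, at the edge of the fold threshold, adjusted p 0.0785), and DESeq2 called 0 lower. Of 85 cytosolic ribosomal protein genes edgeR called 41 lower and 1 higher between the stages in WT, with a median of -1.06; under ERCC scaling the median was -0.06. Of 78 mitochondrial ribosomal protein genes 26 were called lower, with a median of -0.81, and 0.21 under ERCC scaling. For the members these were 6 higher and 4 lower (22 and 0 under ERCC scaling, where the cytosolic ribosomal protein genes had 2 and 0). Between null and WT at E2.75 the cytosolic ribosomal protein genes had a median of 0.57 (0.08 under ERCC scaling) and the members -0.14 (-0.63 under ERCC scaling).

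Introns of several ribosome biogenesis genes hold snoRNA genes, and exosome activity trims snoRNA ends. In the annotation 21 snoRNA genes lie inside 7 members (Dkc1, Nop56, Nop58, Ncl, Gnl3, Wdr43 and Tsr1), and 12 of them had a count. Their summed level was 3.78, 3.96 and 4.75 CPM (lowest, median, highest) in the E2.5 WT libraries and 2.32 and 3.93 CPM in the Het libraries. It was 9.15, 21.2, 13.4 and 9.87 CPM in the E2.5 null libraries. All 4 null values lay above all WT and Het values of the day. At E2.75 the sums were 6.39, 6.57 and 2.33 CPM in WT, 2.64 to 3.92 CPM in Het, and 13.8, 1.03 and 9.14 CPM in null libraries. There 2 of 3 nulls lay above every other library of the day and 1 below all of them. These sums rest on 42 to 125 counts in the E2.5 null and 2 to 66 counts in the E2.75 null libraries. Libraries were made from polyadenylated RNA and no test was run on the sums. Reads outside exons were higher in the same null libraries, and their part in the snoRNA sums was not tested.

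**Figure D4:**
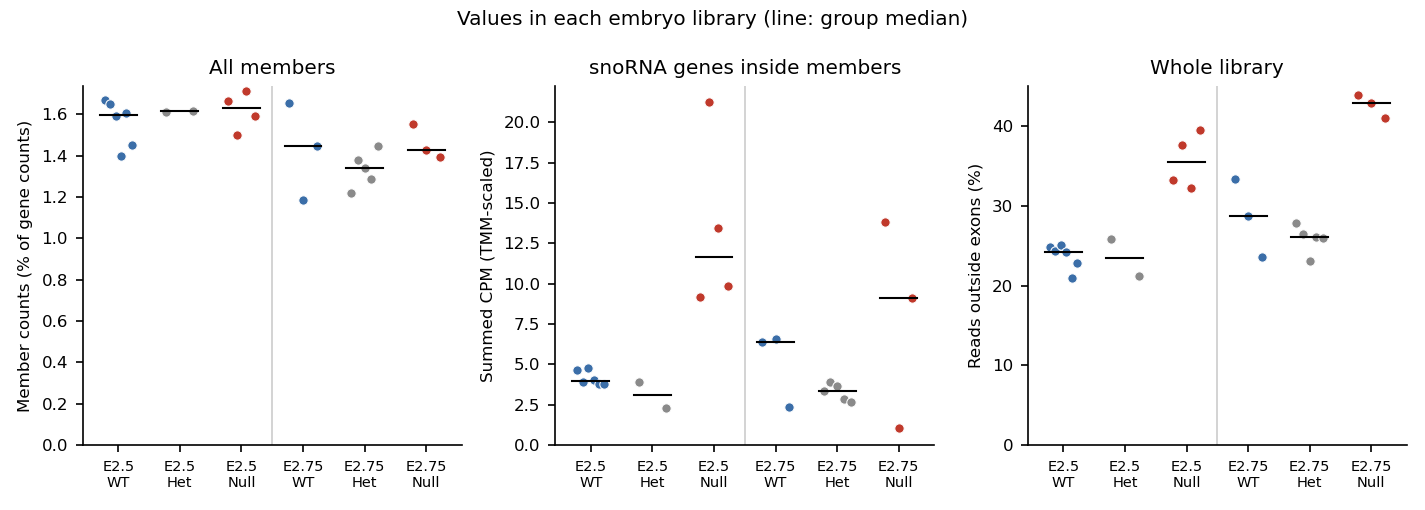
Members' share of gene counts, summed level of the snoRNA genes inside members (CPM, TMM-scaled) and share of reads outside exons, in each embryo library by group, with lines at group medians. Reads outside exons were 32.3% or above in every null library, and the snoRNA sums of the 4 E2.5 null libraries (9.15 to 21.2 CPM) were above those of all WT and Het libraries of that day.

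POU6F1 is a homeodomain factor whose binding was mapped by the study in embryonic stem cells derived from blastocysts homozygous for a floxed Dis3 allele. The cells were transfected with POU6F1-mCherry under the pCAG promoter, so the level of the factor was not the natural one, and peaks were called by the authors against IgG and against cells with mCherry alone. A peak of replicate 1 that overlapped a peak of replicate 2 by at least 1 base was kept. It was assigned to a gene when any part of it lay within 1 kb of a start. For Tsr1 only the edge of the peak did, with the summit at -1462 bases from the start. Of the 44 members 40 (90.9%) had such a peak against IgG, beside 8802 of the 13415 genes tested (65.6%) and 84 of the 101 other pathway genes (83.2%). Nop10, Polr1b, Imp3 and Ddx21 had none. With a reciprocal overlap of 50% between replicates, 21 members (47.7%) had a peak, beside 31.4% of tested genes and 42.6% of the other pathway genes. Against mCherry-only cells 15 members (34.1%) had a peak, beside 24.0% of tested genes and 34 of the 101 other pathway genes (33.7%). These were Nhp2, Gar1, Dkc1, Rrp9, Npm1, Nolc1, Utp15, Wdr75, Heatr1, Utp18, Mphosph10, Ddx10, Tsr1, Bop1 and Noc3l. No test was run on these shares. Replicate 2 had 3630 peaks against mCherry-only cells and 24524 against IgG, beside 31348 and 82694 in replicate 1. A kept peak needs both replicates, so the few peaks of replicate 2 limit what can be seen against mCherry-only cells.

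The fold enrichment over IgG varied among members. Npm1 had 45.5 in replicate 1 and 20.6 in replicate 2. Utp18 had 46.7 and 13.7, Bop1 41.7 and 18.3, and Utp15 41.3 and 10.4. These 4 were also peaks against mCherry-only cells. Of the genes with printed promoters, Nop2 had 37.6 and 13.4, Nhp2 29.8 and 10.5, and Nol7 14.9 and 3.45. Nop2 and Nol7 had no peak kept in both replicates against mCherry-only cells. Imp3, the gene with the smallest p in null against Het, had no peak in either setting.

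**Figure D5:**
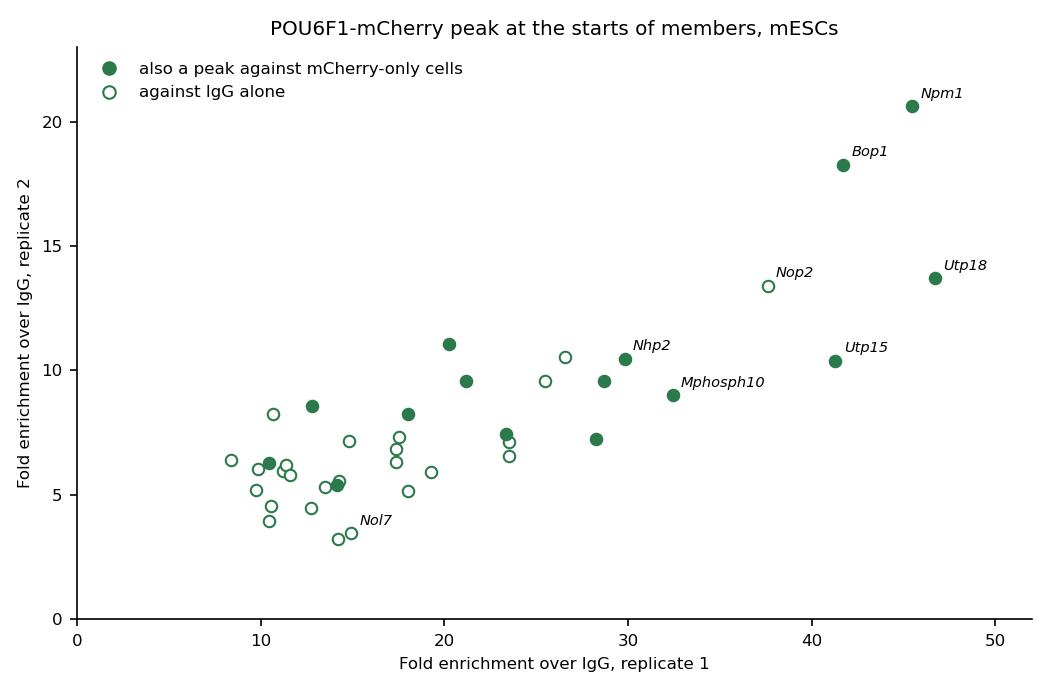
Fold enrichment over IgG in replicate 1 (horizontal axis) and replicate 2 (vertical axis) of the POU6F1-mCherry peak assigned to each of 40 members in embryonic stem cells. Each peak reached within 1 kb of a start. Filled points are the 15 members that also had a peak against mCherry-only cells. Npm1 (45.5 and 20.6) and Bop1 (41.7 and 18.3) lay farthest from the origin in replicate 2.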

How the data were processed

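The files hold counts deposited by the authors: reads were trimmed with Cutadapt 3.4, aligned to GRCm38 with STAR 2.7.8a and counted per gene with HTSeq 0.11.4 (intersection-strict, without strand); the annotation release was not stated. For ChIP-seq the authors aligned reads with Bowtie2 2.4.4 and called peaks with MACS2 2.2.7.1, and the deposited peak files give a score, a fold enrichment (ratio over the control), -log10 p and -log10 q values per peak. Ambiguous and outside-exon reads and the 92 ERCC species were left out of gene totals. Members, lists and comparisons were chosen with earlier results of these data known.

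Genes were filtered with filterByExpr, scaled by TMM (CPM) and tested with edgeR 4.0.16 quasi-likelihood fits (limma 3.58.1, R 4.3.3), with BH adjustment over all genes tested; genes were called below 0.1 when the log2 ratio was also beyond 1 in size. Alternatives used DESeq2 1.42.0, RLE or ERCC scaling, no filter, thinned counts, a stage covariate, a replicate block, other call thresholds and fewer libraries (without each embryo, the 2 with the fewest gene counts, or the WT library with the low Dis3 level). Named with values in every sample were Dis3, the member of each role with the highest level per length, members called in a genotype comparison, the 3 smallest p in null against Het and null against WT with the stages combined and in the WT stage comparison; genes outside this rule are marked as such. Peaks, promoters and figures were handled with Python 3.11.15, numpy 2.4.6, pandas 2.3.3 and matplotlib 3.10.9. The fits were tested on simulated data. No share of all genes is given for calls at other thresholds. Gene totals ran from 1690192 to 14015980 counts per library, and reads outside exons, which the counting leaves out, from 20.99% to 43.9%.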

Additional observations from a re-analysis of the deposited data

Results flagged for a closer look

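Among 57 groups of 4 to 6 embryos tested for a library far from the rest, 2 had one past the limit, and chance gives about 1 in 20 groups. For Npm1 the library E2.5 WT replicate 5 stood at 4246.49 CPM, with a gap to the next value of 0.727 of the range of the 6 libraries. For Nob1 the library E2.75 Het replicate 3 stood at 197.937 CPM, with a gap of 0.756 of the range of the 5 libraries. Their cause was not tested.

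Some signals lie in data that the comparisons did not use. Reads outside exons had a median of 35.4877% in the E2.5 null libraries and of 42.888% in the E2.75 null libraries, above every WT and Het library of the same day. The summed level of snoRNA genes inside members had a median of 11.6528 CPM in the E2.5 null libraries and of 9.1368 CPM in the E2.75 null libraries, above every WT and Het library of the same day, although 1 of the 3 E2.75 null libraries, at 1.03 CPM, lay below them all. No test was run on these differences, and their cause was not tested.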

How the results depend on the processing

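With ERCC scaling, all genes called higher and lower in null against Het went from 493 and 276 to 289 and 4487 (33.4% of all). At E2.5 they went from 0 and 2 to 39 and 1916 (12.05%), and at E2.75 from 363 and 333 to 330 and 2164 (15.0%). Members called lower became 20, 16 and 5. In null against WT all genes went from 491 and 213 to 317 and 469. At E2.5 they went from 216 and 73 to 52 and 39, and at E2.75 from 316 and 340 to 181 and 746 (5.17%). Members lower at E2.75 became 2. Between the WT stages all genes went from 698 and 680 to 3218 (17.2%) and 59, with 22 members higher and 0 lower. Between the null stages all genes went from 231 and 330 to 1969 (10.5%) and 39 (273 and 228 with RLE factors). Of the members 9 were higher and 0 lower. The cause was not tested.

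Under ERCC scaling these log2 fold changes changed sign: in null against Het, Imp3 (-0.42 with the stages combined, -0.16 at E2.5) and Rrp9 (-0.43); in null against WT at E2.5, Imp4 (-0.0265); in Het against WT, Nhp2 (0.27) and Wdr12 (0.28); between the WT stages, Npm1 (0.0126), Ncl (0.26), Utp3 (0.15), Ebna1bp2 (0.17) and Imp3 (0.30); between the null stages, Nhp2 (0.0619), Wdr43 (0.0196), Ebna1bp2 (0.0446), Nop58 (0.23) and Nol7 (0.78). The cause was not tested. Member counts per ERCC count, as group medians over that of E2.5 WT, were 1.67 (E2.5 Het), 0.726 (E2.5 null), 1.35 (E2.75 WT), 1.59 (E2.75 Het) and 0.994 (E2.75 null).

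In null against Het 1 was higher without the 2 shallowest libraries or at any fold, and at E2.5 1 was higher by DESeq2. In null against WT at E2.5 1 was higher by DESeq2, with RLE factors, without the library with the low Dis3 level or at any fold. Without the filter 1 was lower in null against Het and 1 in null against WT at E2.75. Nol7 in null against WT at E2.75 was not called without the 2 shallowest libraries (0 higher, adjusted p 0.187). Between the WT stages 3 were higher at an adjusted p under 0.05. At any fold 9 were lower, with Pes1 and Wdr36 also higher. Between the null stages 2 were higher by DESeq2 (5.26% of all genes) and 1 without the filter (1.52%), and 5 were lower at any fold. Without the 2 shallowest libraries, which leaves 1 E2.75 null embryo, Imp3 had -1.03. The interaction of null against WT had 1 higher by DESeq2 and 1 without the filter. There the adjusted p of Nol7 ran from 0.00211 to 0.465. The cause was not tested.

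Leaving out each embryo in turn gave 0 to 1 higher in null against Het (Imp3, 1 without E2.75 null replicate 2: 1.07, adjusted p 0.0311) and 0 to 1 higher in null against WT at E2.5 (Imp3, 1 without E2.5 null replicate 1: 1.06; null replicate 2: 1.11; WT replicate 5: 1.01; WT replicate 6: 1.00362). In null against Het at E2.75 it gave 0 to 1 lower (Nop2, 1 without Het replicate 2: -1.12), and in null against WT at E2.75 1 to 1 higher (Nol7). The other genotype comparisons and interactions had 0 to 0.

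Between WT stages leaving out 1 embryo gave 2 to 7 higher and 4 to 7 lower. Polr1a was called in 21 of 23 fits, Bop1 in 20, Rrp1b in 19, Rrp12 in 16 and the 6 others in all. Without E2.75 WT replicate 1 edgeR called 2 higher (1.87% of all genes) and 7 lower (2.29%). The adjusted p was 0.154 for Polr1a, 0.189 for Bop1, 0.293 for Rrp1b and 0.215 for Rrp12. Without E2.75 WT replicate 3 edgeR called 2 higher (1.85%), with adjusted p 0.127, 0.118, 0.166 and 0.343. Without E2.5 WT replicate 5 it called 3 higher (2.38%), with 0.104 for Bop1, 0.127 for Rrp1b and 0.129 for Rrp12. Without E2.5 WT replicate 2 they were 0.117 for Rrp1b and 0.147 for Rrp12. Without E2.5 WT replicates 1, 3 and 4 they were 0.136, 0.141 and 0.1198 for Rrp12. Npm1 was called in 7, Noc4l in 5, Wdr43 in 3, Wdr36 in 2, and Polr1b, Ebna1bp2, Heatr1 and Nop10 in 1 each.

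Between null stages it gave 0 to 1 higher (1 without E2.5 Het replicate 1 or Het replicate 2) and 0 to 2 lower (2 without E2.5 null replicate 1 or E2.75 null replicate 1, 0 without E2.75 null replicate 2, where Imp3 had an adjusted p of 0.1304). Nol7 there was 0.00630 without E2.75 null replicate 2, and Nop2 ran from -0.13 (without E2.75 null replicate 3) to 0.63 (without E2.75 null replicate 2). Dis3 in null against WT at E2.5 was called without WT replicate 6 but not without any 1 of the other 11 libraries (adjusted p 0.104 to 0.199, log2 -3.96 to -2.98). Against Het at E2.75 it was not called without null replicate 1 (0.104) or null replicate 3 (0.165).

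POU6F1 peaks were at 40 members, at 21 with reciprocal overlap of 50% (47.7%, beside 31.4% of tested genes) and at 15 against mCherry-only cells. The cause was not tested.

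Replicate numbers were not shown to pair embryos. Correlations of deviations from group means ran from -0.106 to 0.0858 in 17 pairs with the same number. In 66 pairs with different numbers they ran from -0.146 to 0.146. Centring on group means makes such values offset each other, exactly so for the 2 E2.5 Het libraries. The ranges therefore cannot exclude a shared litter or batch. With a replicate block, Nol7 in null against WT at E2.75 was 1.66 (adjusted p 0.0745). The block lies within a stage and was not run for the WT and null stage comparisons. Of single-gene values and members' medians under the alternatives, counted together, 1940 stayed the same. For a gene this means the same direction and side of the threshold, and for a median a move within the spread between embryos. Among the single-gene values 69 gained a call, 49 lost it, and 18 changed sign. The members' median moved by more than the spread between embryos under ERCC scaling in 10 comparisons, and also in null against Het without the 2 shallowest libraries (-0.03), at E2.5 without Het replicate 1 (0.14) and at E2.75 without null replicate 1 (-0.07), each opposite in sign to that of all libraries. The 2 shallowest libraries, both E2.75 null, limit that group.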
